A study of Mus musculus with 23 samples.

Results

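Genes of glutathione conjugation and of the antioxidant response, 10 in all, were followed through differentiation of C2C12, a mouse myoblast line. They are the alpha-class glutathione transferases Gsta1, Gsta2, Gsta3 and Gsta4, the mu-class Gstm1 and Gstm2, the theta-class Gstt1, the pi-class Gstp1, and the Nrf2 target genes Nqo1 and Hmox1. The 10 genes were taken by symbol from the gene tables, and all 10 were found among the 32793 rows. The set was selected on measured values of these data: it was chosen by the levels of Gsta1, which had been seen to fall strongly from growth medium in both genotypes. For that reason the change of Gsta1 from growth medium is given as a description without a test, and Gsta1 is left out of every count of genes changed over time within a genotype. Gsta1 stays in the counts of differences between genotypes and of how these changed over time. A filter on low counts kept 14187 genes for testing, and 9 of the 10 genes passed it; Gsta3 did not.

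Glutathione transferases join the tripeptide glutathione to electrophilic compounds, among them products of lipid peroxidation, so that these can be exported and degraded. Nrf2, encoded by Nfe2l2, is a transcription factor held at low level by the ubiquitin ligase adaptor Keap1. Under oxidative or electrophilic stress Nrf2 escapes degradation, pairs with small Maf proteins and activates genes through the antioxidant response element, a site that Bach1 can occupy as a repressor. Many alpha- and mu-class transferases, the quinone reductase Nqo1 and the haem-degrading enzyme Hmox1 are classic targets of this pathway.

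Poly(A) RNA was sequenced from control cells (WT) and from cells whose genotype label is Runx1KO. Both were sampled at day 0 in growth medium, which held 20% fetal bovine serum, or were moved to differentiation medium with 2% horse serum, where myoblasts leave the cell cycle and fuse into myotubes. The titles give days 1, 3 and 6 of differentiation, although the series text gives 5 days for the last point, and the days are named here as in the titles. There were 3 libraries in each of the 8 groups except WT day 0, of which 2 libraries were analysed, giving 23 in all. The labels do not say whether the knockout line was a single clone or whether replicates came from separate cultures, so p-values measure only the spread between these libraries.

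Libraries held between 22197606 and 23684077 estimated counts in total, and intervals or floors based on them cover counting error only. Runx1, the targeted gene, did not fall in the libraries labelled KO: its mRNA was higher than in WT by 0.51, 0.35, 0.54 and 1.02 on the log2 scale at days 0, 1, 3 and 6 (edgeR adjusted p = 0.000362, 0.00151, 1.09e-05 and 6.11e-10). The mRNA level does not show whether functional protein was lost, and the libraries are therefore called labelled KO throughout. Replicate 2 of the labelled KO day 1 group stood apart: its deviation from its group mean correlated with gene GC content (r = -0.624 across 13265 genes, which are not independent replicates). Outside that group, replicates 2 and 3 of WT day 6 had the largest such correlations (r = 0.221 and -0.217). Summed TPM over 9 myoblast and myotube markers was higher in labelled KO than in WT libraries at days 0, 3 and 6 without overlap. It ran from 1010.68 to 1018.8 against 1368.66 to 1424.5 at day 0, from 1324.3 to 1422.3 against 1371.11 to 1696.68 at day 1, from 3496.95 to 3597.09 against 5072.06 to 7985.89 at day 3, and from 2956.02 to 3373.21 against 12232.7 to 14070.7 at day 6. The part of this difference in the results below was not tested. A sum gives most weight to abundant genes (Acta1 reached 9018.27 TPM, Myf5 47.82 TPM) and does not show the direction of each marker. All 9 of these markers averaged at least 1 TPM in every differentiated group. Markers of endothelial cells, adipocytes and hepatocytes summed to at most 1.88 TPM in any library, and Adipoq and Kdr peaked at 0 and 0.01 TPM. The 6 macrophage markers summed to between 0.93 and 3.48 TPM up to day 3, to between 5.87 and 9.42 TPM in WT day 6 and to between 15.47 and 17.22 TPM in labelled KO day 6. Most of the labelled KO day 6 sum was Cd68 (highest value 17.02 TPM), which is a lysosomal protein gene and not restricted to macrophages, while Adgre1 was at 0 and Ptprc at no more than 0.01 TPM. Csf1r, a macrophage receptor gene, went the other way, with 1.41, 1.00 and 0.95 TPM in WT day 6 and 0.28, 0.20 and 0.26 TPM in labelled KO day 6.

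Of the 10 genes, 3 lie next to each other on chromosome 9 of GRCm38, the assembly also called mm10. GENCODE places Gsta4 at chr9:78182774-78209349, Gsta1 at chr9:78230656-78242684 and Gsta2 at chr9:78331018-78355788, with the protein-coding models Gm3776 (chr9:78257129-78269166) and Gm10639 (chr9:78289923-78305525) between Gsta1 and Gsta2. Gsta1 and Gm3776 are near-identical copies. Their coding sequences of 672 bases were 99.7% identical and differed at 2 positions, T25C and C591T, counted from 1 at the first base of the start codon and with the base of Gsta1 first. The 41-base stretches around these positions are shown because they are the only coding stretches in which a read can separate the genes; the capital marks the differing base.
Gsta1, coding positions 5 to 45: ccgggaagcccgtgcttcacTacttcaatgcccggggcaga
Gm3776, coding positions 5 to 45: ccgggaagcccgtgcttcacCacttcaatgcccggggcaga
Gsta1, coding positions 571 to 611: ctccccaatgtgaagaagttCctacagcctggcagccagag
Gm3776, coding positions 571 to 611: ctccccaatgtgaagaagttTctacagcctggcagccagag

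Reads from this cluster can therefore be assigned to a single gene only in part. Of the 50-base words in Gsta1 transcripts, 89.7% also occurred in another gene, 82.9% in Gm3776 and 44.6% in Gsta2. The share was 47.4% for Gsta2, 51% for Gstp1 (all in Gstp2, its neighbour on chromosome 19), 19.9% for Gstm1 and 8.3% for Gstm2. It was 0 for Gsta3, Gsta4, Gstt1, Nqo1 and Hmox1. Gsta2 coding sequence was 97.5% identical to that of Gsta1 and 98.5% identical to that of Gm10639, whereas Gsta3 and Gsta4 shared 74% and 66% with Gsta1. The reference is that of another mouse strain than the one C2C12 came from, and which of these base differences C2C12 carries was not tested.

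The copies also share their upstream sequence. In the RefSeq promoter windows of GRCm38.p6, the 250 bases before the start of Gsta1 (chr9:78230419-78230668, + strand) aligned to the window of Gm3776 at 99.6% identity over 237 columns and to that of Gm10639 at 99.1% over 231 columns. The window of Gsta2, on the opposite strand, aligned at 73.3% over 251 columns. The promoters of Gsta1, Gm3776 and Gsta2 are shown because the counts of all these genes were low after growth medium; capitals mark bases that differ from Gsta1 in the alignment.
Gsta1: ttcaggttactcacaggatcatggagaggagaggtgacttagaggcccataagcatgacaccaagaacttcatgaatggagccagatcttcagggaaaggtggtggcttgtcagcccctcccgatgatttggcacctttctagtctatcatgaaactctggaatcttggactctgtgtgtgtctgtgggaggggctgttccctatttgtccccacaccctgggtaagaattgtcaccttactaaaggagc
Gm3776: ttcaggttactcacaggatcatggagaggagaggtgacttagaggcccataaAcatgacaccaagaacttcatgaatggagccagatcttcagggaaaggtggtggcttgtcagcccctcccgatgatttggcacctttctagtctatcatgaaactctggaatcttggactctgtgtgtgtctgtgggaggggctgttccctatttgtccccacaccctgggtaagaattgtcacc
Gsta2: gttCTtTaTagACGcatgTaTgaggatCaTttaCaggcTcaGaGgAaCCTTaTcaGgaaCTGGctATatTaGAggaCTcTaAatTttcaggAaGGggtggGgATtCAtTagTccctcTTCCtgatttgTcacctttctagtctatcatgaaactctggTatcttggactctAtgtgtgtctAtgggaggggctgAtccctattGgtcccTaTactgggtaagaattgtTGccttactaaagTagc

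The core of the antioxidant response element, TGACNNNGC, was searched on both strands in the 300 bases from 250 before to 50 after each RefSeq start. It occurred in 12.4% of 32851 such windows and at 1 of the 8 member genes with an entry, Gsta3, a share of 12.5%. Gsta4 and Hmox1 had no entry. Among genes of the pathway lists with an entry it occurred at 36.4% of 11 regulators, 31.2% of 16 genes of glutathione and thioredoxin metabolism, 36.8% of 19 other Nrf2 targets and 16.7% of 18 other transferases. Some of these genes have more than 1 window, and the marker lists held it too (2 of 7 muscle and 2 of 4 macrophage genes). The matches at Gsta3 and at the pathway genes named below are shown with 10 bases on either side, with the motif in capitals; a match is a string of letters, not a measured binding site, and these windows do not hold distant enhancers.
Gsta3 (chr1:21240454-21240482, + strand): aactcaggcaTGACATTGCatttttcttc
Nfe2l2 (chr2:75704885-75704913, - strand): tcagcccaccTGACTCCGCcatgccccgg
Srxn1 (chr2:152105542-152105570, + strand): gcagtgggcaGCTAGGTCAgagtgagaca
Gclm (chr3:122245413-122245441, + strand): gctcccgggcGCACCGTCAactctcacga
Prdx1 (chr4:116685456-116685484, + strand): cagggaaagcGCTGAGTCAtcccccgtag
Mgst1 (chr6:138140461-138140489, + strand): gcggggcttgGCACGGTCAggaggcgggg
Txnrd1 (chr10:82859104-82859132, + strand): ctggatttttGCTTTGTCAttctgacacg
G6pdx (chrX:74428919-74428947, - strand): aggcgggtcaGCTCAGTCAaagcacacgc

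The 10 genes spanned a wide range of abundance. On the TPM scale, which corrects for transcript length, Gstp1 had the highest level of the 10 in every group, with means between 686 TPM in labelled KO day 6 and 1320 TPM in WT day 0. Gsta4 came next in growth medium (437 TPM in WT, 436 TPM in labelled KO), followed by Gstm1, Hmox1 and Nqo1 in WT day 0 (173, 134 and 90.4 TPM). Gsta1 and Gstm2 had similar WT day 0 means of 35.9 and 35.5 TPM, Gstt1 had 5.22 TPM and Gsta2 had 2.69 TPM. At day 6 Gstm1 had 252 TPM in WT, above Gsta4 at 211 TPM, an order already seen at day 1 (256 and 155 TPM). In labelled KO cells Hmox1 was above Gstm1 both at day 0 (163 and 136 TPM) and at day 6 (186 and 120 TPM). Values by library below are CPM, the count relative to the TMM-scaled library size, which compare 1 gene between libraries.

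**Figure D1:**
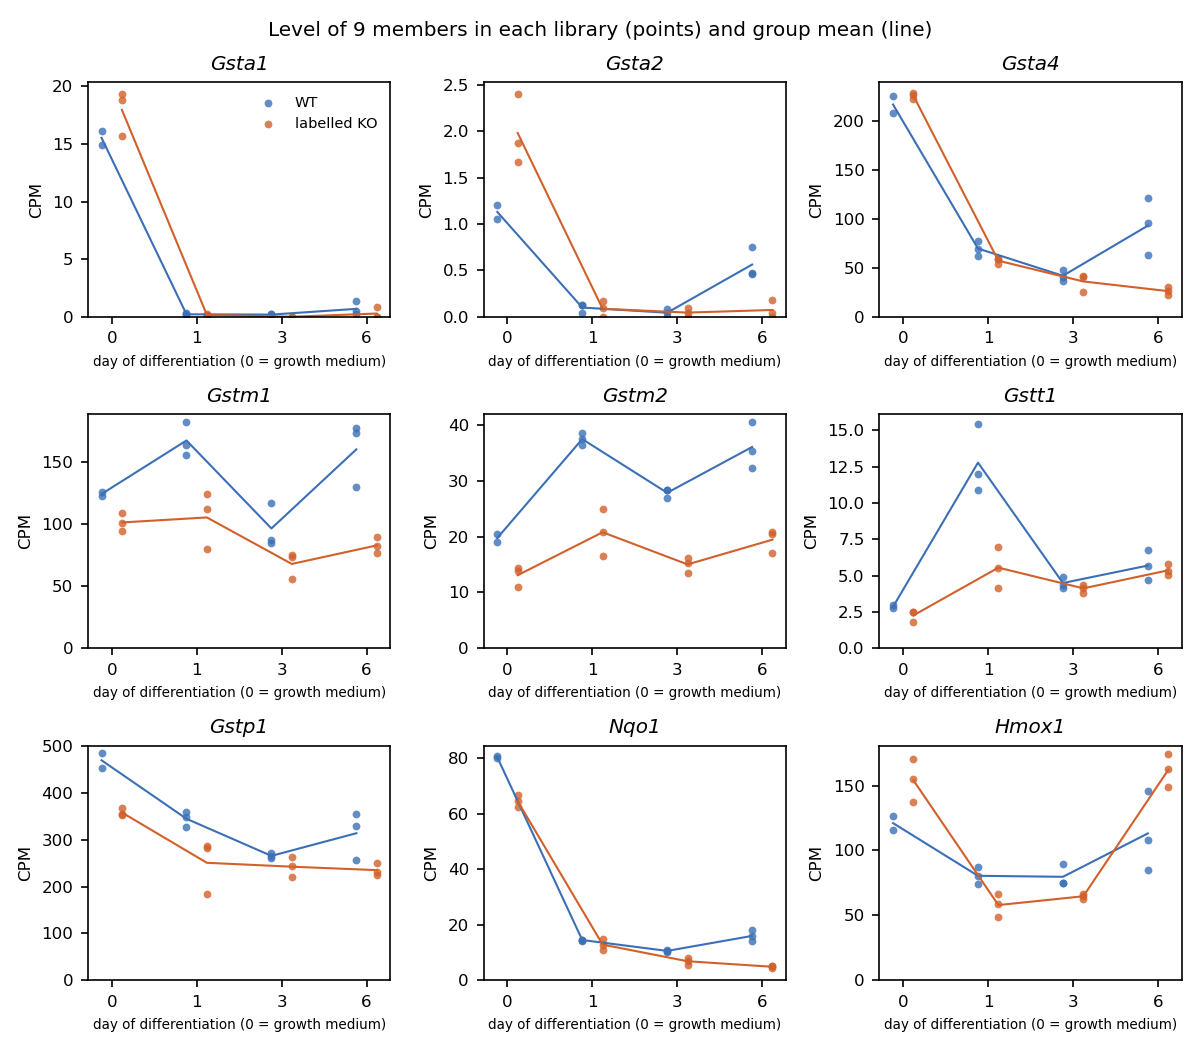
Level of 9 members in every library (points; CPM, linear axes starting at 0) by day, with lines through the group means, for WT and for cells labelled KO. Gsta1, Gsta4 and Nqo1 stand highest in growth medium, Gstm2 is lower in labelled KO cells on every day, and Hmox1 in labelled KO cells is high at both ends of the time course.

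Gsta1 was abundant only in growth medium. It had 15.0 and 16.1 CPM in the 2 WT libraries and 15.7, 19.4 and 18.8 CPM in the 3 labelled KO libraries at day 0, from 340 to 415 counts per library. At day 1 it had 0.127, 0.297 and 0.214 CPM in WT and 0.135, 0.251 and 0.0895 CPM in labelled KO cells, which is 2 to 7 counts. At day 3 the WT libraries had 2 to 6 counts and all 3 labelled KO libraries had 0. No differentiated library reached the lowest day 0 library; in a bulk sample, fewer cells with the transcript and less transcript per cell cannot be told apart.

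The WT mean of Gsta1 was 73.1-fold lower at day 1 than at day 0, 82.6-fold lower at day 3 and 22.6-fold lower at day 6. The day 6 value became 42.7-, 17.3- and 19.4-fold without replicate 1, 2 and 3 of WT day 6. In labelled KO cells the mean was 113-fold lower at day 1 and 64.3-fold lower at day 6. The latter rests on replicate 1 of labelled KO day 6, without which the group is at 0, and it was 42.9-fold without replicate 2 or 3. At day 3, where all labelled KO libraries had 0 counts of Gsta1, a floor of 3 counts per library gave a 133-fold lower level. This is no bound, since reads can be assigned to a copy: these libraries held 1, 8 and 4 counts summed over Gsta1, Gsta2, Gm3776 and Gm10639. At day 6 the libraries disagreed among themselves: WT had 1.33, 0.266 and 0.461 CPM, and labelled KO had 0.838, 0 and 0 CPM. The genotype difference of Gsta1 passed the test on no day. At day 6 it was -1.30 ± 0.73 on the log2 scale (SE; edgeR adjusted p = 0.16). It depended on single libraries there: without replicate 1 of labelled KO day 6, which leaves a group at 0, the fit gave an adjusted p of 0.000249 (-7.00, no bound), and without replicate 1 of WT day 6 it gave -0.43 (adjusted p = 0.732). Leaving out replicate 2 or 3 of labelled KO day 6 also brought the value nearer to 0. At day 3 it was -5.14 ± 2.21 (adjusted p = 0.0665) against a group at 0, so its size depends on the prior count and is no bound. That adjusted p fell below 0.05 in 7 of the alternatives tried, among them DESeq2 (adjusted p = 0.0107) and the fit without a filter on low counts (adjusted p = 0.0117).

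Because reads can be split over copies, the counts of Gsta1, Gsta2, Gm3776 and Gm10639 were also summed. Gm3776 had 100 to 152 counts in each day 0 library and Gsta1 held 64.4% to 73.6% of the sum there. In labelled KO day 6 the share of Gsta1 ran from 0 to 70.4%: replicate 1 had 19 of its 27 counts in Gsta1, whereas replicates 2 and 3 had 16 and 21 counts in Gm3776 and 0 in Gsta1. In 7 of 23 libraries the deposited TPM of Gsta1 and Gm3776 were equal, 1 of these with both at 0. The 0 values of Gsta1 at day 6 thus stand beside counts in its copy, and those in labelled KO day 3 beside 1, 8 and 4 counts in the sum.

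The summed row had 23.5 ± 2.07 CPM in WT day 0 (SD, n = 2) and 25.9 ± 1.43 CPM in labelled KO day 0 (SD, n = 3). Relative to day 0 its mean was 55.3-, 65.1- and 11.4-fold lower in WT and 94.6-, 134- and 26.6-fold lower in labelled KO cells at days 1, 3 and 6. The labelled KO day 3 value rests on 1, 8 and 4 summed counts and became 96.7-, 231- and 129-fold without replicate 1, 2 and 3. At day 6 the WT libraries had 72, 42 and 29 summed counts and the labelled KO libraries 27, 19 and 21, so the groups did not overlap. The difference there was -1.07 ± 0.31 on the log2 scale (SE; edgeR adjusted p = 0.00789), and the sum was chosen after the copies had been seen in the tables. The call was lost without replicate 1 of WT day 6 (-0.68 ± 0.32, adjusted p = 0.10) and held without each of the other day 6 libraries in turn (adjusted p at most 0.0392).

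**Figure D2:**
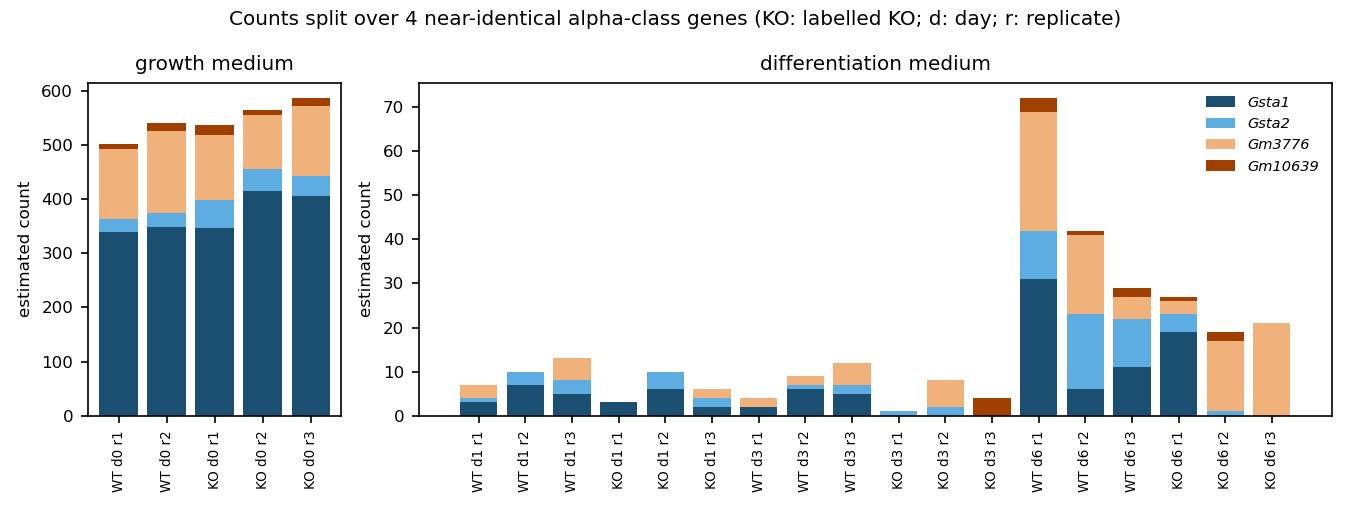
Estimated counts of Gsta1, Gsta2, Gm3776 and Gm10639 stacked for every library, in growth medium (left) and in differentiation medium (right); both axes are linear from 0 but differ in range. Day 0 libraries hold 502 to 586 counts, day 1 and day 3 libraries 1 to 13, and day 6 libraries 19 to 72, with a composition that varies between replicates.

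Gsta2, whose product is a close relative of that of Gsta1, was scarce throughout. It had 24 and 26 counts in WT day 0 and 53, 40 and 36 counts in labelled KO day 0, and at most 4 counts in any library of days 1 and 3. At day 6 the WT libraries had 11, 17 and 11 counts (0.473, 0.754 and 0.461 CPM), whereas the labelled KO libraries had 4, 1 and 0 (0.176, 0.043 and 0 CPM). Gsta2 was thus lower in labelled KO cells at day 6, with a log2 difference of -2.86 ± 0.69 (SE; edgeR adjusted p = 0.00168), while at day 0 its difference was 0.81 ± 0.46 (adjusted p = 0.268). Leaving out 1 library moved the day 6 value between -4.41, without replicate 1 of labelled KO day 6, and -2.31, without replicate 3 of that group, and the call held (adjusted p at most 0.0121). With Gsta1 and Gsta2 counts summed, the day 6 difference was -1.82 (adjusted p = 0.014). Gsta3 had 2 or 3 counts in each WT day 6 library (0.0860, 0.133 and 0.126 CPM) and 0 counts in the other 20 libraries, where a count of 0 allows up to 3 counts.

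Gsta4 conjugates 4-hydroxynonenal, an aldehyde formed when lipids are oxidised, and shares no 50-base word with another gene. At day 0 it had 209 and 226 CPM in WT and 223, 227 and 230 CPM in labelled KO cells. At day 1 it had 62.4, 77.6 and 69.5 CPM in WT and 58.9, 59.0 and 54.3 CPM in labelled KO cells. At day 3 the genotypes overlapped at 36.8, 40.8 and 48.2 CPM against 25.5, 41.1 and 41.8 CPM. At day 6 they parted. WT libraries of Gsta4 had 121, 95.7 and 62.7 CPM at day 6, all above every WT day 3 library, and labelled KO libraries had 22.7, 25.9 and 30.1 CPM.

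Gsta4 was 3.56-fold lower in labelled KO cells at day 6, with a log2 difference of -1.83 ± 0.18 (SE; edgeR adjusted p = 2.16e-08) and no overlap between groups. On days 0, 1 and 3 its differences were 0.06, -0.28 and -0.21 (adjusted p = 0.894, 0.205 and 0.355). The change of the genotype difference between day 0 and day 6, the interaction term, was -1.89 ± 0.27 (adjusted p = 2.21e-05). Relative to day 0, Gsta4 fell by 1.64, 2.37 and 1.22 on the log2 scale in WT and by 1.98, 2.65 and 3.11 in labelled KO cells at days 1, 3 and 6 (adjusted p at most 5.81e-06).

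Gstm1 and Gstm2 are mu-class transferases, encoded side by side on chromosome 3 (chr3:108012255-108017973 and chr3:107981702-107986453). Both were lower in labelled KO cells during differentiation. Gstm2 had 18.96 and 20.5 CPM in WT and 11.0, 14.4 and 13.8 CPM in labelled KO cells at day 0. At day 1 it had 36.4, 38.4 and 37.5 CPM in WT and 24.9, 16.5 and 20.8 CPM in labelled KO cells. The order was the same at day 3 (28.4, 26.8 and 28.2 CPM against 13.5, 16.2 and 15.3 CPM). It was the same again at day 6, with 35.3, 40.4 and 32.3 CPM against 17.1, 20.5 and 20.8 CPM. On no day did the genotypes overlap.

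The log2 differences of Gstm2 were -0.59 ± 0.14, -0.85 ± 0.12, -0.89 ± 0.13 and -0.89 ± 0.12 at days 0, 1, 3 and 6 (SE; edgeR adjusted p = 0.00471, 7.27e-06, 4.44e-06 and 2.91e-06), so that its level was 1.51-, 1.80-, 1.85- and 1.85-fold lower. It was the only one of the 9 tested genes that passed the test on all 4 days. The day 0 call was lost without replicate 2 of WT day 0 (-0.53, adjusted p = 0.0643). It was also lost when Gstm1 to Gstm7 were summed (-0.36, adjusted p = 0.0689), whereas the later days passed there. Gstm2 rose from day 0 by 0.92, 0.50 and 0.87 on the log2 scale in WT at days 1, 3 and 6 (adjusted p at most 0.00418) and by 0.67 and 0.57 at days 1 and 6 in labelled KO cells (adjusted p = 0.000143 and 0.000421). With Gstm1 to Gstm7 summed these labelled KO changes were 0.17 and -0.11, and neither passed (adjusted p = 0.25 and 0.444), and the WT day 3 change was -0.20 (adjusted p = 0.218). At day 3 in labelled KO cells the change of Gstm2 was 0.20 (adjusted p = 0.202). It passed with limma on log2(TPM + 1) (0.28, adjusted p = 0.021). The sum of Gstm1 to Gstm7 passed in the other direction (-0.35, edgeR adjusted p = 0.0169).

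Gstm1 had 126 and 123 CPM in WT and 109, 101 and 94.4 CPM in labelled KO cells at day 0, a difference of -0.29 ± 0.16 on the log2 scale that did not pass (adjusted p = 0.254). At day 1 it had 156, 183 and 164 CPM in WT and 125, 80.1 and 112 CPM in labelled KO cells, lower by 0.67 ± 0.15 (log2 difference -0.67, adjusted p = 0.000843). The lowest value, 80.1 CPM, came from the library whose deviation followed GC content. At day 3 it had 87.6, 85.1 and 118 CPM in WT and 56.0, 75.0 and 73.4 CPM in labelled KO cells. That log2 difference of -0.51 ± 0.15 (adjusted p = 0.00827) was lost without replicate 1 of labelled KO day 3 (adjusted p = 0.0626) or replicate 3 of WT day 3 (adjusted p = 0.0879). At day 6 the values of Gstm1 were 178, 174 and 130 CPM in WT and 76.9, 82.3 and 90.1 CPM in labelled KO cells. The day 6 level was 1.93-fold lower in labelled KO cells (log2 difference -0.95 ± 0.15, adjusted p = 1.49e-05), and the groups did not overlap.

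Gstt1, a theta-class transferase active on small halogenated compounds, stood out at day 1. It had 2.77 and 2.96 CPM in WT day 0 and 12.02, 15.4 and 10.9 CPM in WT day 1, a 4.45-fold rise (log2 change 2.16 ± 0.21, adjusted p = 1.06e-08). In labelled KO cells it had 2.495, 2.52 and 1.81 CPM at day 0 and 5.55, 4.14 and 6.98 CPM at day 1, a 2.44-fold rise (adjusted p = 8.28e-06). All WT day 1 libraries lay above all others. Gstt1 was therefore 2.30-fold lower in labelled KO cells at day 1 (log2 difference -1.20 ± 0.17, edgeR adjusted p = 6.15e-06). At days 3 and 6 the genotypes overlapped: 4.40, 4.94 and 4.16 CPM against 3.85, 4.15 and 4.40 CPM, then 5.67, 6.74 and 4.70 CPM against 5.78, 5.03 and 5.31 CPM. The differences there were -0.12 and -0.08 (adjusted p = 0.622 and 0.741). The change of the genotype difference from day 0 to day 1 was -0.87 ± 0.29 and did not pass (adjusted p = 0.0983); with DESeq2 its adjusted p was 0.0497.

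Gstp1, the pi-class transferase and the most abundant of the set, is encoded beside Gstp2 at chr19:4035407-4037985. It had 454 and 486 CPM in WT and 367, 353 and 355 CPM in labelled KO cells at day 0. At day 1 it had 328, 349 and 359 CPM in WT and 287, 184 and 282 CPM in labelled KO cells, the 184 CPM again in the library whose deviation followed GC content. At day 6 it had 331, 355 and 257 CPM in WT and 225, 231 and 250 CPM in labelled KO cells. The groups did not overlap on these days, but at day 3 they did (266, 261 and 271 CPM against 220, 245 and 263 CPM).

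The log2 differences of Gstp1 were -0.39 ± 0.14, -0.46 ± 0.12, -0.13 ± 0.12 and -0.42 ± 0.12 at days 0, 1, 3 and 6 (SE; edgeR adjusted p = 0.0489, 0.00427, 0.409 and 0.00826). Leaving out 1 library ended the day 0 call in 17 of 23 refits, and the day 6 call was lost without replicate 2 of WT day 6 (-0.32, adjusted p = 0.0587). Summing Gstp1 with Gstp2 and Gstp3 gave -0.39, -0.46, -0.13 and -0.41. Gstp2 itself had 0.217 to 1.95 CPM in WT and at most 0.543 CPM in labelled KO cells up to day 3, but 3.04, 2.93 and 3.05 CPM in labelled KO day 6. Its log2 difference was -2.31, -2.41, -0.57 and 1.00 (adjusted p = 0.00806, 0.000833, 0.392 and 0.0464). Assignment of reads between Gstp1 and Gstp2 is uncertain.

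Nqo1 reduces quinones by transferring electrons in pairs and is a standard readout of Nrf2 activity (chr8:107388225-107403206). It had 80.1 and 80.7 CPM in WT and 62.3, 64.6 and 66.6 CPM in labelled KO cells at day 0, and 14.5, 14.6 and 14.2 CPM against 14.9, 12.7 and 10.7 CPM at day 1. From there the genotypes separated. At day 3 it had 10.7, 10.9 and 9.98 CPM in WT and 5.39, 7.01 and 7.99 CPM in labelled KO cells. By day 6 the WT libraries had 18.1, 15.8 and 13.96 CPM and the labelled KO libraries 4.99, 4.22 and 5.18 CPM, without overlap. All 3 WT libraries of Nqo1 were higher at day 6 than any at day 3, and all 3 labelled KO libraries were lower.

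The log2 difference of Nqo1 was -0.32 ± 0.12 at day 0 (SE; edgeR adjusted p = 0.07), -0.17 ± 0.12 at day 1 (adjusted p = 0.259), -0.63 ± 0.13 at day 3 (adjusted p = 0.000427) and -1.73 ± 0.13 at day 6 (adjusted p = 2.34e-10). The day 0 difference passed in 6 of 32 refits. Among them were those without each labelled KO day 1 library and without replicate 1 of labelled KO day 3, which lie outside the comparison. The day 6 level was 3.32-fold lower in labelled KO cells. The change of the genotype difference from day 0 to day 6 was -1.41 ± 0.18 (adjusted p = 5.51e-06). Relative to day 0, Nqo1 fell by 2.48, 2.93 and 2.33 on the log2 scale in WT and by 2.33, 3.25 and 3.75 in labelled KO cells (adjusted p at most 3.22e-13).

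Hmox1 breaks down haem to biliverdin, iron and carbon monoxide, and is repressed by Bach1 as well as activated by Nrf2 (chr8:75093621-75100589). It followed another course than Nqo1. At day 0 it had 116 and 126 CPM in WT and 137, 155 and 170 CPM in labelled KO cells. At day 1 it had 80.2, 86.9 and 74.2 CPM in WT and 58.3, 48.9 and 66.4 CPM in labelled KO cells, and at day 3 it had 74.6, 74.8 and 89.6 CPM against 64.7, 66.6 and 62.6 CPM. The labelled KO libraries were the higher ones at day 6, with 149, 163 and 174 CPM against 146, 108 and 84.9 CPM in WT. The WT day 6 libraries of Hmox1 were widely spread.

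The log2 difference of Hmox1 was 0.35 ± 0.15 at day 0 (SE; edgeR adjusted p = 0.139), -0.48 ± 0.14 at day 1 (adjusted p = 0.00869), -0.30 ± 0.14 at day 3 (adjusted p = 0.0867) and 0.52 ± 0.14 at day 6 (adjusted p = 0.00377). The day 3 difference passed in 10 of 32 refits, among them DESeq2 (-0.34, adjusted p = 0.0424), the fit without a filter on low counts (adjusted p = 0.0243) and limma on log2(TPM + 1) (-0.44, adjusted p = 0.00738). The day 6 call was lost without replicate 3 of WT day 6 (0.32, adjusted p = 0.0543). Hmox1 fell from day 0 by 0.59 and 0.60 on the log2 scale at days 1 and 3 in WT (adjusted p = 0.00228 and 0.00173) and by 1.41 and 1.25 in labelled KO cells (adjusted p = 1.64e-08 and 6.73e-08). The fall was larger in labelled KO cells by 0.82 ± 0.21 at day 1 (interaction -0.82, adjusted p = 0.0273) and by 0.65 ± 0.21 at day 3 (interaction -0.65, adjusted p = 0.0475). Leaving out 1 library ended the first of these calls in 5 and the second in 13 of 23 refits. The day 1 interaction was lost without either WT day 0 library, without replicate 2 or 3 of labelled KO day 0, and without replicate 2 of WT day 1. By day 6 the change from day 0 was -0.10 in WT and 0.07 in labelled KO cells, neither past the test (adjusted p = 0.591 and 0.647).

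Counted together, the tested members that differed between genotypes were mostly lower in labelled KO cells. At day 0, 0 of 9 were higher and 2 lower (Gstm2 and Gstp1), where 7.36% of all 14187 tested genes were higher and 10.1% lower. At day 1, 0 were higher and 5 lower (Gstm1, Gstm2, Gstp1, Gstt1 and Hmox1), against 22.9% and 19.2% of all genes. At day 3, 0 were higher and 3 lower (Gstm1, Gstm2 and Nqo1), against 24.0% and 19.2%. At day 6, 1 was higher (Hmox1) and 6 were lower (Gsta2, Gsta4, Gstm1, Gstm2, Gstp1 and Nqo1), against 22.0% and 20.8%. The median log2 difference of the 9 members was -0.29, -0.46, -0.30 and -0.95 on the 4 days, beside -0.0011, 0.03, 0.04 and 0.0037 over all tested genes.

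Without replicate 2 of WT day 0, 0 members passed at day 0. The library whose deviation followed GC content, replicate 2 of labelled KO day 1, had the lowest labelled KO value of all 5 members called at day 1. Without it all 5 still passed, with log2 differences of -0.52 for Gstm1, -0.73 for Gstm2, -0.30 for Gstp1, -1.05 for Gstt1 and -0.39 for Hmox1 (adjusted p at most 0.0401). The day 3 count depended on the method: DESeq2 and limma on log2(TPM + 1) each called 5 members in place of 3, and the fit without replicate 1 of WT day 6 also called 5. The balance over all genes depended on the scale and the method. Of all called genes, 42.1%, 54.4%, 55.5% and 51.4% were higher at days 0, 1, 3 and 6, but 31.3%, 43.3%, 34.3% and 34.9% with limma on log2(TPM + 1), which changes the measure and the test as well. With library size alone they were 29.5%, 47.2%, 47.3% and 42.0%, and with RLE size factors 45.0%, 51.0%, 49.7% and 51.9%. No called genotype difference of a member changed direction under any of these settings.

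**Figure D3:**
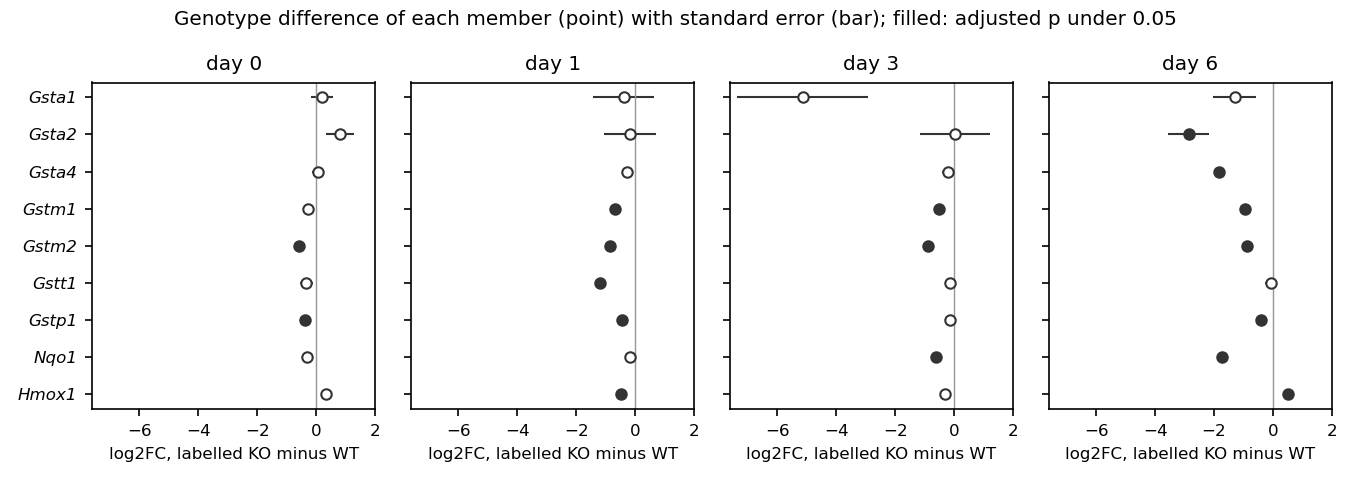
Log2 difference between labelled KO and WT (points) with its standard error (bars) for the 9 tested members at each day; filled points have an edgeR adjusted p under 0.05. Filled points lie below 0 except Hmox1 at day 6, and the bars of Gsta1 and Gsta2 are wide after day 0.

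The change from growth medium was counted without Gsta1. In WT, 3 of 8 members were higher and 5 lower at day 1 than at day 0, 2 and 5 at day 3, and 2 and 3 at day 6. The shares over all genes were 27.1% higher and 27.6% lower at day 1, 29.2% and 29.0% at day 3, and 32.6% and 31.1% at day 6. In labelled KO cells 2 members were higher and 5 lower at day 1, 1 and 6 at day 3, and 2 and 4 at day 6, beside 27.2% and 25.2%, 30.4% and 27.2%, and 36.6% and 33.5% of all genes. With limma on log2(TPM + 1) the higher share of all called genes was 60.6%, 63.8% and 63.5% in WT at days 1, 3 and 6 in place of 49.6%, 50.1% and 51.2%, and 65.2% in labelled KO day 1 in place of 51.9%. Nothing is read from these counts, since falling levels over time had a part in choosing the set. The comparisons with growth medium in 1 genotype share their day 0 libraries.

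Gstt1 rose and Gsta4, Gstp1 and Nqo1 fell at every time point in both genotypes, and Gstm2 rose at each except day 3 in labelled KO cells (0.20, adjusted p = 0.202). Gstp1 fell by 0.45, 0.82 and 0.58 on the log2 scale in WT and by 0.52, 0.56 and 0.61 in labelled KO cells (adjusted p at most 0.00768). Gsta2 fell in WT at days 1 and 3, with log2 changes of -3.44 and -4.54 (adjusted p = 7.45e-05 and 1.25e-05), and its day 6 change was -1.002 (adjusted p = 0.0839). In labelled KO cells the log2 changes of Gsta2 were -4.42, -5.30 and -4.67 (adjusted p at most 1.07e-06). These sizes rest on few counts. Without single libraries they ran from -5.29 to -3.88, from -6.15 to -4.77 and from -6.19 to -4.12. The lowest values came without replicate 2 of labelled KO day 1, replicate 2 of day 3 and replicate 1 of day 6. The WT day 3 value ran from -5.38, without replicate 3, to -4.01. Gstm1 rose by 0.43 at day 1 in WT (adjusted p = 0.0318) and fell by 0.58 at day 3 in labelled KO cells (adjusted p = 0.00206), with the other 4 changes not past the test. Of these, the WT day 6 change of 0.37 (adjusted p = 0.0572) passed in 19 of 33 refits, among them DESeq2 (adjusted p = 0.0278) and RLE size factors (adjusted p = 0.0365). The changes of -0.36 in WT day 3 and -0.29 in labelled KO day 6 passed in 6 and 3 of 33 refits. The day 1 rise of Gstm1 was lost without either WT day 0 library (adjusted p = 0.0663 and 0.139) or without replicate 2 of WT day 1 (adjusted p = 0.0568). The day 1 fall of Gstp1 in WT was lost without replicate 2 of WT day 0 (adjusted p = 0.07). The WT rise of Gstt1 at day 3 (0.65, adjusted p = 0.0141) was lost without either WT day 0 library (adjusted p = 0.0665 and 0.0536).

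The interaction of genotype and time was tested in the same fit. Of 9 members, 1 passed at day 1 (Hmox1), 1 at day 3 (Hmox1) and 3 at day 6 (Gsta2, Gsta4 and Nqo1), where 3.95%, 10.7% and 13.0% of all genes passed in either direction. For Gsta2 the day 6 interaction was -3.67 ± 0.83 (SE; edgeR adjusted p = 0.0039), on counts of at most 53. Without single libraries it ran from -5.24, without replicate 1 of labelled KO day 6, to -3.11. Gstm1 had -0.66 ± 0.22 at day 6 and did not pass in the main fit (adjusted p = 0.0535), although it passed in 16 of 33 refits, among them DESeq2 (adjusted p = 0.0232), RLE size factors (adjusted p = 0.046) and limma on log2(TPM + 1) (adjusted p = 0.0163). With limma on log2(TPM + 1) the share of higher values among all called genes was 51.4% in place of 66.8% at day 1 and 45.2% in place of 62.1% at day 3, and with RLE size factors it was 51.6% at day 3.

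**Figure D4:**
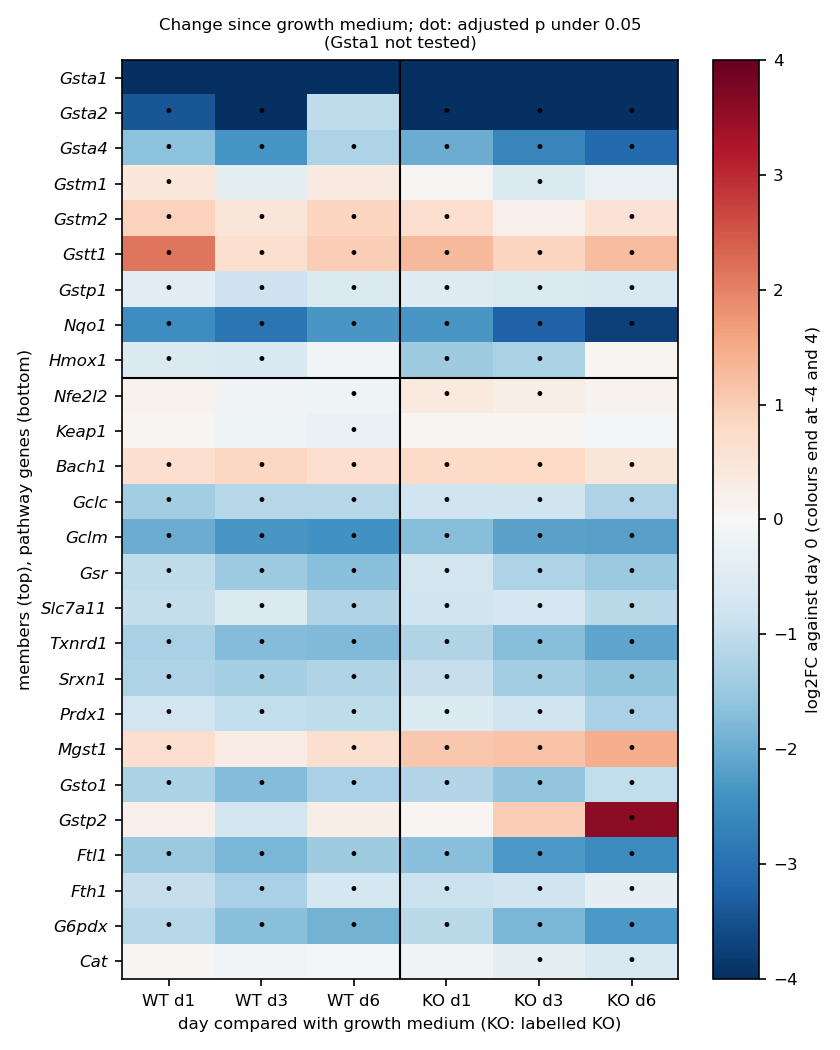
Log2 change from growth medium at days 1, 3 and 6 in WT and labelled KO cells for the 9 tested members (above the line) and 17 named pathway genes (below); colours end at -4 and 4, and dots mark an edgeR adjusted p under 0.05 (Gsta1 was not tested). Gclm, Txnrd1, Ftl1 and G6pdx fall with Nqo1 and Gsta4 in both genotypes, while Bach1 and Gstt1 are higher than in growth medium throughout and Gstm2 is higher except at day 3 in labelled KO cells, where it did not pass.

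The rest of the pathway was read from 4 lists with 71 genes, 59 of them tested. Among the regulators, Nfe2l2 differed by at most 0.25: its log2 difference between genotypes was -0.10, 0.14, 0.25 and 0.21 at days 0, 1, 3 and 6 (adjusted p = 0.409, 0.0881, 0.00247 and 0.0106). Keap1 passed on no day (adjusted p = 0.144 to 0.631). Bach1 was higher in labelled KO cells at day 1 only (0.38, adjusted p = 0.0104), and it rose from day 0 by 0.48 to 0.81 at every time point in both genotypes (adjusted p at most 0.000955). Nrf2 is controlled mainly through protein stability, which mRNA does not measure. Of the 11 regulators tested, 1 was higher and 0 lower in labelled KO cells at day 0, 4 and 1 at day 1, 2 and 2 at day 3, and 3 and 1 at day 6, beside 7.36% and 10.1%, 22.9% and 19.2%, 24.0% and 19.2%, and 22.0% and 20.8% of all genes.

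Genes of glutathione and thioredoxin metabolism went in both directions. Txnrd1, which reduces thioredoxin, was higher in labelled KO cells on all 4 days, by 0.72, 0.83, 0.75 and 0.37 on the log2 scale (edgeR adjusted p = 2.54e-07, 1.95e-09, 7.33e-09 and 0.00013). Gclc, the catalytic subunit of the first enzyme of glutathione synthesis, was higher by 0.28, 0.87 and 0.62 at days 0, 1 and 3 (adjusted p = 0.0213, 9.93e-09 and 9.25e-07), with 0.18 at day 6 (adjusted p = 0.0664). Gsr, which regenerates reduced glutathione, was higher by 0.44, 0.38 and 0.34 at days 1, 3 and 6 (adjusted p at most 0.000846). The modifier subunit Gclm was higher by 0.30 at day 1 and 0.25 at day 6 (adjusted p = 0.0101 and 0.033). The cystine transporter Slc7a11 passed on no day (adjusted p = 0.158 to 0.851). Srxn1, which repairs oxidised peroxiredoxins, was lower in labelled KO cells at days 3 and 6 (-0.29 and -0.63, adjusted p = 0.00354 and 5.02e-07). The secreted glutathione peroxidase Gpx3, named after its values were seen, was lower at days 1, 3 and 6 (-0.73, -1.46 and -1.12, adjusted p at most 0.000928).

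Of the 16 tested genes of glutathione and thioredoxin metabolism, 2 were higher and 1 lower at day 0, 6 and 3 at day 1, 6 and 4 at day 3, and 6 and 5 at day 6. The shares over all tested genes were again those beside the regulators. The list's median log2 difference was 0.05, 0.14, 0.12 and 0.17. Prdx1, a peroxide-reducing enzyme, was higher by 0.27 and 0.21 at days 1 and 3 and lower at day 6 (-0.25; adjusted p = 0.00348, 0.0205 and 0.00703). Within WT, Txnrd1, Gclc, Gclm, Gsr, Slc7a11, Srxn1 and Prdx1 all fell from day 0 to day 6, by between 1.01 (Prdx1) and 2.41 (Gclm) on the log2 scale (adjusted p at most 5.62e-08). Over the 16 tested genes of the list, 3 were higher and 10 lower in WT at day 6 than at day 0, beside 32.6% and 31.1% of all genes.

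Among other genes held to be Nrf2 targets, more were lower than higher in labelled KO cells at days 3 and 6. Of 20 tested, 3 were higher and 3 lower at day 0, 2 and 6 at day 1, 4 and 11 at day 3, and 2 and 14 at day 6, beside 24.0% higher and 19.2% lower of all genes at day 3 and 22.0% and 20.8% at day 6, with shares at days 0 and 1 as beside the regulators. The list medians were -0.11, -0.10, -0.23 and -0.61. At day 6 G6pdx, which makes NADPH, was lower by 0.62 (log2 difference -0.62, adjusted p = 6.19e-07). The ferritin light chain gene Ftl1 had -0.67 (adjusted p = 2.38e-05) and catalase, Cat, had -0.46 (adjusted p = 3.68e-05). The heavy chain gene Fth1 was higher by 0.43 at day 3 and 0.25 at day 6 (adjusted p = 0.000326 and 0.0251), and Ftl1 had been higher by 0.44 at day 0 (adjusted p = 0.0132). Counting all 4 lists, 6 genes were higher and 10 lower at day 0, 13 and 16 at day 1, 13 and 19 at day 3, and 14 and 24 at day 6. The day 0 total of 16 was 10 or 9 without replicate 1 or 2 of WT day 0.

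Of the 12 other transferases that were tested, 0 were higher and 6 lower in labelled KO cells at day 0, 1 and 6 at day 1, 1 and 2 at day 3, and 3 and 4 at day 6. The shares over all genes were those given for the regulators, and the list medians were -0.44, -0.52, -0.03 and -0.18. The membrane-bound Mgst1 was lower on every day, by 1.19, 0.80, 0.34 and 0.39 on the log2 scale (log2 differences -1.19, -0.80, -0.34 and -0.39; adjusted p = 8.14e-06, 4.15e-05, 0.0421 and 0.0196). The omega-class Gsto1 was higher by 0.29, 0.34 and 0.52 at days 1, 3 and 6 (adjusted p = 0.0156, 0.00538 and 9.4e-05). Gsto1 fell from day 0 in both genotypes, by 0.99 to 1.73, whereas Mgst1 rose by 1.07, 1.13 and 1.45 in labelled KO cells (adjusted p at most 1.99e-06) and by 0.68 and 0.65 at days 1 and 6 in WT (adjusted p = 0.000474 and 0.000632). Its WT day 3 change was 0.29 (adjusted p = 0.107).

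**Figure D5:**
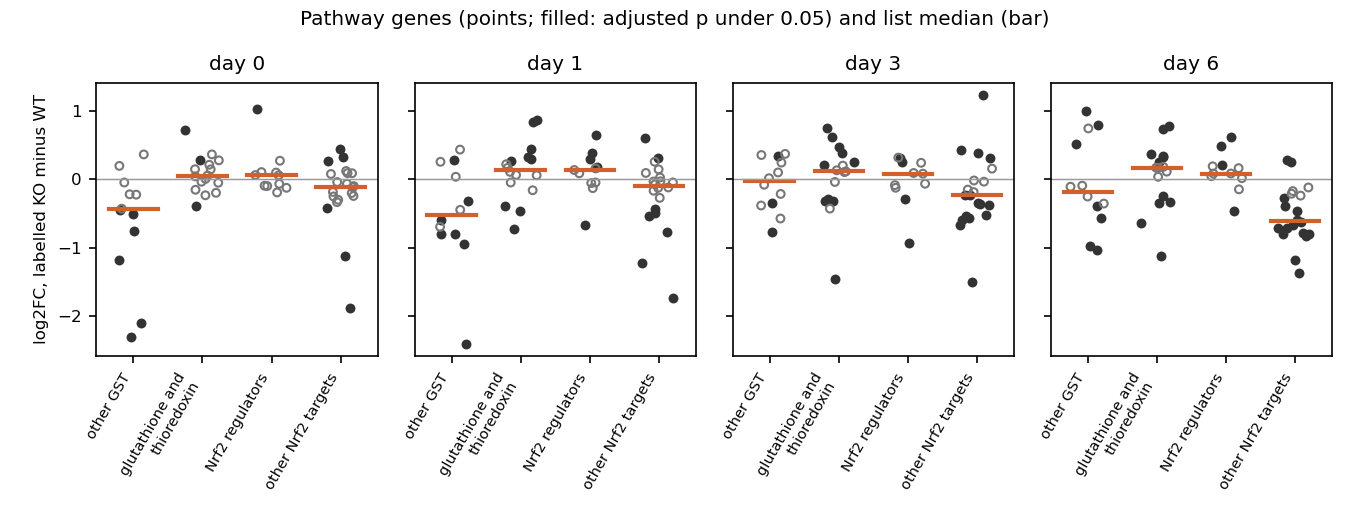
Log2 difference between labelled KO and WT for the tested genes of 4 pathway lists at each day (points; filled where the edgeR adjusted p is under 0.05), with the list median as a bar. The bar of other Nrf2 targets lies at -0.61 at day 6, while that of glutathione and thioredoxin genes stays between 0.05 and 0.17.

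The genes whose time course was most like that of Gsta1 were found by Pearson correlation of log2 CPM group means over the 8 groups, among 10238 genes with a mean of at least 5 CPM. The closest were Foxc2 (r = 0.987), Optn (r = 0.983), Dhps (r = 0.983), Lpcat4 (r = 0.980) and Slc1a5 (r = 0.979). Among the members, Nqo1 stood at rank 40 (r = 0.958) and Gsta4 at rank 81 (r = 0.942), whereas Hmox1 stood at rank 2899 (r = 0.592). The points share the contrast between growth medium and all later days, so a high value says little beyond that contrast.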

How the data were processed

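The authors deposited estimated counts per gene symbol, which are whole numbers, and TPM (abundance normalised for transcript length and depth) for the same genes. Bowtie2, RSEM and the mm10 build are named in the submitters' processing notes, without versions; oligo(dT) selection is given per the labels' protocols. Use of strand is not given in the sources used here.

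Counts were tested as deposited (rounding changed no value) with edgeR 4.0.16 (R 4.3.3): TMM scaling, filterByExpr (minimum count 10, minimum total 15), the quasi-likelihood F-test and 1 group-means model over all 23 libraries, with Benjamini-Hochberg adjustment over 14187 genes per contrast and a threshold of 0.05. Each SE was the absolute log2 difference divided by the square root of the F statistic, which is approximate where counts are near 0. Log2 CPM for likeness used a prior count of 2. Columns were matched to samples by name. On simulated counts for 13845 genes, 200 of them changed at day 6, 83% of 2-fold and 99% of 4-fold changes were recovered, and 2.15% of calls were false.

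The members and all gene lists were chosen with earlier results of these data known. Named genes are the 10 members, 17 pathway genes, Runx1 and the 5 genes most like Gsta1 (at least 5 CPM on average); Gm3776, Gm10639 and Gpx3 were added after their values were seen. Pathway lists covered other glutathione transferases, glutathione and thioredoxin metabolism, Nrf2 regulators and other Nrf2 targets; marker lists covered muscle, macrophage, endothelial, adipocyte and hepatocyte genes.

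Alternatives were RLE size factors, library size alone, DESeq2 1.42.0, omission of the filter or a stricter one (mean count 50 or more), limma 3.58.1 on log2(TPM + 1) and log2(TPM + 0.1), only the groups compared, the replicate number as a block, an adjusted p under 0.01, an absolute log2 difference of at least 1, sums over paralogs and omission of each library. The sum that includes Gm3776 and Gm10639 was chosen after seeing the data. The labels do not say whether equal replicate numbers mark pairs, and the main fit used none. Deviations of same-numbered libraries correlated at -0.094 to 0.0938 on average between groups, which cannot settle this with so few libraries per group.

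Shared 50-base words, coding identity and motif matches were computed in Python 3.11.15 with Biopython 1.88 from GENCODE transcripts and RefSeq promoter windows of GRCm38; protein identity was not analysed here.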

Additional observations from a re-analysis of the deposited data

Results flagged for a closer look

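In 5 cases the effect of differentiation on a member differed between genotypes by a test of that difference, the interaction term of the edgeR fit (adjusted over 14187 genes). Hmox1 had -0.82 ± 0.21 at day 1 (SE; adjusted p = 0.0273) and -0.65 ± 0.21 at day 3 (adjusted p = 0.0475): it fell from growth medium in every group of days 1 and 3, and further in labelled KO cells. Leaving out 1 library ended these Hmox1 calls in 5 and 13 of 23 refits. Nqo1 had -1.41 ± 0.18 at day 6 (adjusted p = 5.51e-06), where it was lower than at day 3 in labelled KO cells and higher in WT. Gsta4 had -1.89 ± 0.27 at day 6 (adjusted p = 2.21e-05), where WT lay above its day 3 libraries and labelled KO cells overlapped theirs. Gsta2 had -3.67 ± 0.83 at day 6 (adjusted p = 0.0039), on at most 17 counts in any day 6 library.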

How the results depend on the processing

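Of 62 member values past the threshold (time changes of Gsta1 not counted), 1380 of 1426 refits without 1 library and 581 of 588 other refits kept direction and call, and 46 and 5 lost the call. Each value was refitted without each of the 23 libraries, also those outside the groups it compares. The total of 1426 therefore overstates how well a value stands the loss of a library it rests on. Counts of called members that moved by over 1.5 times were as follows; smaller moves, such as 4 in place of 3 for the day 6 interaction with DESeq2, RLE size factors, library size alone, no filter, both limma fits and only the groups compared, are not listed. At day 0 (2 members), 5 with only the groups compared, 1 with the replicate block and 1 at an adjusted p under 0.01. At day 3 (3 members), 5 with no filter, 5 with DESeq2, 5 and 6 with limma on log2(TPM + 1) and log2(TPM + 0.1) and 5 with only the groups compared. For the day 1 interaction (1 member), 2 with DESeq2, 2 with limma on log2(TPM + 1) and 0 at an adjusted p under 0.01. For the day 3 interaction (1 member), 2 with no filter, 2 with only the groups compared, 0 with the replicate block and 0 at an adjusted p under 0.01. Requiring an absolute log2 difference of at least 1 left 0, 1, 0 and 3 members between genotypes at days 0, 1, 3 and 6, 4, 3 and 2 in WT over time, 4 in labelled KO cells at day 3, and 0 in both of these interactions; pathway genes became 6, 3, 3 and 5 between genotypes, 21 in WT day 6 and 27 in labelled KO day 6 in place of 45 in each. The replicate block also ended the calls of Gstm1 in WT day 1 (0.42, adjusted p = 0.0508), Gstp1 at day 0 (-0.41, adjusted p = 0.06) and the Hmox1 interaction at day 3 (-0.64, adjusted p = 0.075); it gave 15, 29, 31 and 37 pathway genes between genotypes in place of 16, 29, 32 and 38. The cause was not tested.

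Without single libraries, called members ran from 0 to 3, 5 to 5, 2 to 5 and 6 to 8 between genotypes at days 0, 1, 3 and 6, from 6 to 8, 6 to 8 and 5 to 6 in WT over time, from 7 to 7, 7 to 7 and 6 to 7 in labelled KO cells, and from 0 to 2, 0 to 2 and 3 to 4 in the interactions. Pathway genes ran from 9 to 22, 25 to 32, 27 to 37 and 35 to 42, then from 42 to 45 in WT day 6 and 45 to 49 in labelled KO day 6. Where an arm kept 1 library, it was assumed to vary like the other groups.

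Values that changed sign, all but a pair of them not past the threshold in the main fit, were the Gsta4 genotype difference at day 0 (0.06; -0.0012 with library size alone, -0.0022 and -0.0022 on the TPM scales), that of Gsta2 at day 3 (0.04; -0.0045, -0.016 and -0.058 in the same order, -2.23 summed with Gsta1, -0.88 in the sum over 4 rows) and the WT day 6 change of Hmox1 (-0.10; 0.051 and 0.051 on the TPM scales). With Gstm1 to Gstm7 summed, changes of Gstm2 turned to -0.20 in WT day 3 and to -0.35 and -0.11 in labelled KO days 3 and 6 (0.50, 0.20 and 0.57 for Gstm2 alone), in a row that holds the more abundant Gstm1. Without single libraries the ranges crossing 0 were -1.07 to 0.37 and -0.80 to 0.89 for Gsta2 between genotypes at days 1 and 3, -1.61 to 0.082 for its day 3 interaction, -0.080 to 0.23 for Gstm1 in labelled KO day 1, -0.17 to 0.066 and -0.21 to 0.071 for the Gstp1 interactions at days 1 and 6, -0.24 to 0.052 for Gstt1 between genotypes at day 6, -0.0072 to 0.15 and -0.27 to 0.13 for the day 6 changes of Hmox1 in labelled KO and WT cells, and -0.053 to 0.35 for its day 6 interaction. The TPM scale moved the median of all genes by -0.15 to 0.16. Depth limits Gsta1, Gsta2 and Gsta3 after day 0, where 0 to 31 counts per library were seen.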
